A study of Homo sapiens with 8 samples.

Results

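The 44 genes described here encode the kinase complexes, GTPases, lipid kinases and effectors of mTOR and PI3K-AKT signalling. They were taken from a list of pathway components, and a gene was measured where a probe set carried its symbol alone. That held for 39 of the 44, out of 18417 genes so measured on the array. PRR5, TBC1D7 and FKBP5 had probe sets shared with other symbols only, which name no single gene. No probe set carried the symbol PIK3CA or PIK3R2 in the platform annotation used, so neither was analysed here. Where a gene had several probe sets, the brightest stood for it.

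RNA came from human ovarian carcinoma cells on Affymetrix Gene 1.0 ST arrays, 2 arrays in each of 4 groups. The groups were A2780CP20, a cisplatin-resistant subline of A2780, with no treatment; A2780 given temsirolimus for 24 h; A2780 given temsirolimus for 48 h; and A2780 with no treatment. All grew in RPMI medium with fetal bovine serum, and the temsirolimus stock was in DMSO. The labels give no dose and do not say whether the untreated cells received vehicle. They also do not say whether the 2 arrays of a group came from different cultures, and p-values therefore rest on the spread between arrays alone, which may be technical. A2780CP20 is 1 subline set against 1 parent line.

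In this pathway growth factor receptors activate PI3K, a lipid kinase made of a catalytic and a regulatory subunit, whose product recruits the kinases PDPK1 and AKT to the membrane. AKT restrains the TSC complex and so releases the GTPase RHEB, which activates mTOR complex 1 (mTORC1) on lysosomes, where RAG GTPases place it when amino acids are present. mTORC1 phosphorylates S6 kinases and the 4E-BP repressors to raise translation, while mTOR complex 2 (mTORC2) phosphorylates AKT and SGK. Temsirolimus, an ester of rapamycin, binds the protein encoded by FKBP1A, and the pair inhibits mTORC1. These are acts on proteins, whereas the arrays measured RNA.

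The arrays labelled 24 h stood apart from the other 6. Over all genes they correlated with every other array at r = 0.950 to 0.952, against 0.994 to 0.996 between the arrays labelled 48 h and untreated A2780. Their first principal component, 70.2% of the variance, was 63.5 and 63.8, with all others between -24.0 and -14.2. Fibroblast and stroma markers moved with them: 6 of 7 were lower than in untreated A2780 and none higher, with a mean log2 level of 6.89 to 6.95 at 24 h against 9.65 to 9.67. Of 9 epithelial markers 2 were higher, KRT18 and EPCAM, and their mean was 6.89 to 6.94 against 6.28 to 6.30. Of 6 ovarian and Mullerian markers 1 was lower. Of 5 leukocyte markers 1 was higher and 1 lower, and of 5 endothelial markers none passed the test. The epithelial marker CDH1 measured 5.19 and 5.46 in untreated A2780, near the lower quartile of the arrays. In A2780CP20, 1 stroma marker was higher and 3 were lower, and none of the other marker lists had a call. These counts are to be read against all genes, of which 14.9% were higher and 15.3% lower at 24 h. In A2780CP20 the shares were 6.37% and 12.0%. In RNA from whole cultures, fewer cells of a type and less RNA per cell cannot be told apart. The part of these differences in the results was not tested. The labels were taken as given, and whether any array of the 24 h or A2780CP20 groups is mislabelled could not be checked from these files, and "24 h" below means the arrays so labelled.

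In A2780CP20, the RAG GTPase genes RRAGB and RRAGC, the mTORC2 subunit gene RICTOR and the translation repressor gene PDCD4 were lower than in A2780. RPTOR and AKT1S1 of mTORC1, MLST8 of both mTOR complexes and the repressor gene EIF4EBP1 were higher. MTOR and the mTORC2 genes MAPKAP1 and PRR5L were not called there. Of the 39 genes, 7 rose and 7 fell at an adjusted p under 0.05 (limma, Benjamini-Hochberg over all genes, which defines a call throughout). Of all genes 6.37% rose, 12.0% fell and 18.4% were called, against 35.9% of these 39. With the dimmest 25% of all genes left out of the test, 27.9% of genes and 15 of the 39 were called. The arrays of A2780CP20 and untreated A2780 did not overlap for 27 of the 39, against 55.3% of all genes. In a fit of only these 2 groups none of the 7 rises and 4 of the 7 falls were called. The median difference over the 39 was -0.02 log2, against 0.03 over all genes.

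On the arrays labelled 24 h the PI3K regulatory subunit genes PIK3R3 and PIK3R1 and above all PDCD4 were lower, and PIK3CB, GRB10 and RRAGD were higher. In all 6 of 39 rose and 8 fell. The 35.9% called is close to the 30.1% of all genes called there (14.9% higher, 15.3% lower). The groups did not overlap for 33 of the 39, against 66.0% of all genes. The median over the 39 was -0.16 log2, against 0.01 over all genes.

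At 48 h no gene of the pathway was called by limma, while 0.179% of all genes were (0.163% higher, 0.0163% lower). The groups did not overlap for 23 of the 39, against 46.8% of all genes. At an unadjusted p under 0.05 there were 5 of 39, or 12.8%, against 11.1% of all genes. The differences lay between -0.48 and 0.32 log2, and the median half-width of their 95% intervals was 0.25. For 33 of the 39 the interval lay within 0.5 log2 of no change in either direction, so differences beyond 0.5 log2 are outside it for these 33. These comparisons share the untreated A2780 arrays, so their values stand side by side and are not independent. The map of the 39 genes shows each array against the untreated mean.

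**Figure D1:**
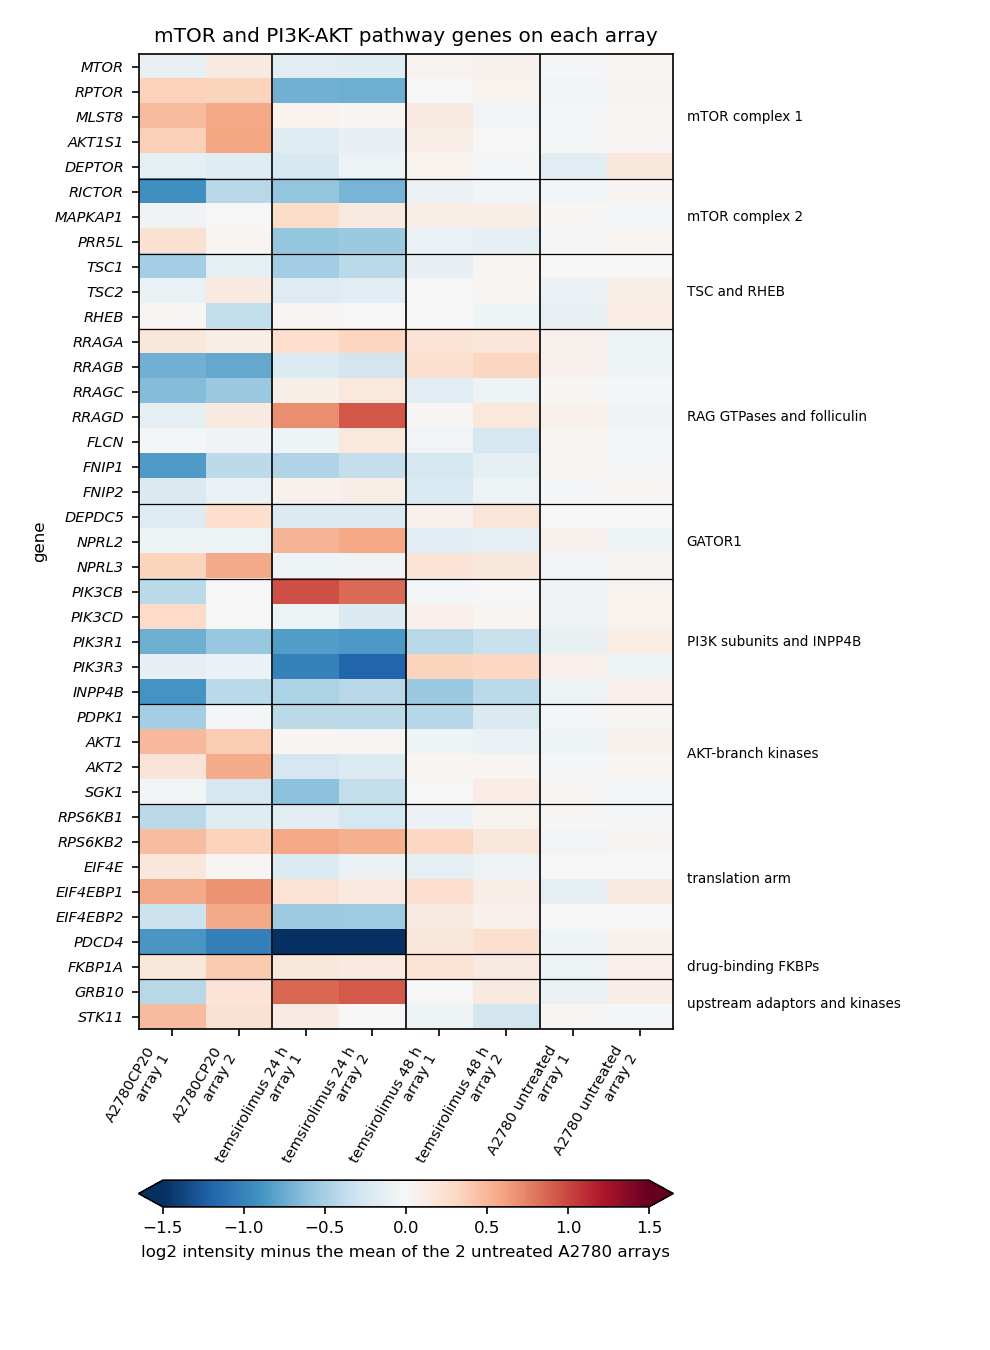
Log2 intensity of 39 mTOR and PI3K-AKT genes (rows, grouped by role) on the 8 arrays (columns, A2780CP20, temsirolimus 24 h, temsirolimus 48 h, A2780 untreated), minus the mean of the 2 untreated A2780 arrays. The darkest cells are PDCD4 at 24 h, where the scale ends at 1.5 in both directions, and among the 48 h columns the deepest cells belong to INPP4B.

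The catalytic subunit gene MTOR measured 9.24 and 9.49 in A2780CP20, 9.18 and 9.17 at 24 h, 9.40 and 9.41 at 48 h, against 9.32 and 9.38 in untreated A2780. It was not called in any comparison, though 48 h against 24 h (0.23 log2, adjusted p = 0.132) passed with only those groups fitted (0.043) or without either A2780CP20 array (0.0366). It had a difference of -0.17 ± 0.10 log2 at 24 h (limma, adjusted p = 0.259). Here and below, ± after a difference is its standard error with n = 2 arrays a group. The fit to all 8 arrays gives each gene 1 spread shared by the 4 groups. The A2780CP20 arrays lay farther apart than the others, as given below, so ± can be too small for their differences. RPTOR, the scaffold that brings substrates to mTORC1, measured 9.15 and 9.13 in A2780CP20, 8.08 and 8.07 at 24 h, 8.80 and 8.85 at 48 h, against 8.76 and 8.84 in untreated A2780. Both A2780CP20 arrays lay above every other and both 24 h arrays below every other. RPTOR rose by 0.34 ± 0.09 log2 in A2780CP20 (1.27-fold, adjusted p = 0.0281) and was at -0.72 ± 0.09 at 24 h (1.65-fold lower, adjusted p = 0.000309). Its rise ended without both arrays labelled 24 h (adjusted p = 0.0586).

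MLST8, a shared subunit of both mTOR complexes, measured 9.84 and 9.94 in A2780CP20, 9.41 and 9.38 at 24 h, 9.49 and 9.32 at 48 h, against 9.34 and 9.38 in untreated A2780. Only the A2780CP20 pair lay clear of the untreated arrays, with a rise of 0.53 ± 0.10 log2 (1.44-fold, adjusted p = 0.00832). AKT1S1, which encodes the mTORC1 inhibitor PRAS40, rose by 0.48 ± 0.10 there (adjusted p = 0.0171). DEPTOR, which encodes an inhibitor bound to both complexes, stayed between -0.16 and 0.02 log2 against untreated A2780 and was not called. So 3 of the 5 genes of this group rose in A2780CP20, where 6.37% of all genes did, and 1 fell at 24 h, where 15.3% did. The 3 rises ended without A2780 untreated replicate 1 (adjusted p = 0.0577 for MLST8, 0.0909 for AKT1S1, 0.139 for RPTOR) and without A2780 untreated replicate 2 (0.0533, 0.0853 and 0.0915). RPTOR's also ended without either array labelled 24 h (0.0586) or 48 h (0.0539).

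Of the mTORC2 genes, RICTOR, its defining subunit, measured 7.0 and 7.50 in A2780CP20, 7.32 and 7.22 at 24 h, 7.81 and 7.87 at 48 h, against 7.87 and 7.96 in untreated A2780. All A2780CP20 and 24 h arrays lay below the untreated pair, but the A2780CP20 arrays were 0.5 log2 apart. RICTOR fell by 0.66 ± 0.15 log2 in A2780CP20 (adjusted p = 0.0191) and by 0.64 ± 0.15 at 24 h (adjusted p = 0.0117). The first call ended without A2780 untreated replicate 1 (0.0767) or 2 (0.116), and the second without A2780 untreated replicate 2 (0.0743) or temsirolimus 24 h replicate 2 (0.0722). PRR5L, an accessory protein of mTORC2, measured 6.88 and 6.69 in A2780CP20, 6.08 and 6.10 at 24 h, 6.55 and 6.52 at 48 h, against 6.63 and 6.68 in untreated A2780. The 24 h arrays were its lowest, with a fall of 0.56 ± 0.10 log2 (adjusted p = 0.0023). MAPKAP1, the subunit SIN1, was not called in any comparison.

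**Figure D2:**
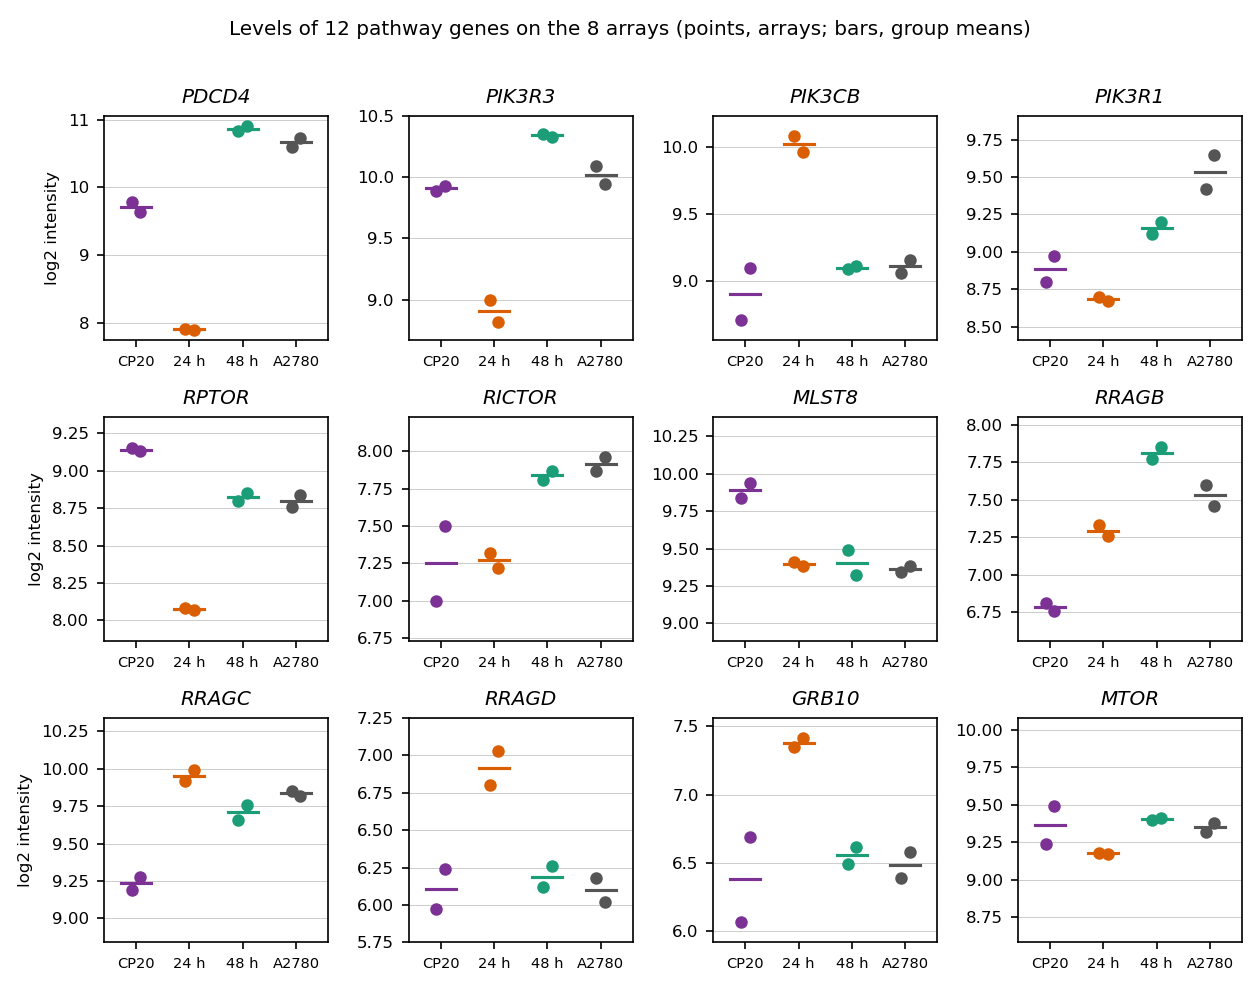
Log2 intensity of 12 genes on each array (points) with the group mean (bar), in A2780CP20 (CP20), temsirolimus 24 h, temsirolimus 48 h and untreated A2780; each panel has its own log2 axis, which does not start at 0. RPTOR was highest in A2780CP20 and lowest at 24 h, while MTOR stayed between 9.17 and 9.49 on all arrays.

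In the TSC branch, TSC1 and TSC2 encode the complex that switches RHEB off. TSC1 was at -0.47 ± 0.13 log2 at 24 h (adjusted p = 0.0277), a call that ended with array medians centred (0.0503), without either untreated A2780 array (0.105 and 0.114) and without temsirolimus 24 h replicate 1 (0.147) or 2 (0.0728). In A2780CP20 it measured 7.87 and 8.25 against 8.37 and 8.39 in untreated A2780, a difference of -0.32 ± 0.13 that did not pass (adjusted p = 0.131). TSC2 was not called, at -0.17 to 0.02 log2. RHEB was not called through either of its 2 probe sets, which differed from untreated A2780 by -0.17 to 0.04 log2. RHEB has processed copies in the genome, so its probes are uncertain.

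The RAG GTPases act as pairs of RRAGA or RRAGB with RRAGC or RRAGD, and folliculin (FLCN) with its partners FNIP1 and FNIP2 acts on the RRAGC and RRAGD side. In A2780CP20, 3 of these 7 genes fell and none rose, where 12.0% of all genes fell. RRAGB measured 6.81 and 6.76 in A2780CP20, 7.33 and 7.26 at 24 h, 7.77 and 7.85 at 48 h, against 7.60 and 7.46 in untreated A2780. RRAGC measured 9.19 and 9.28 in A2780CP20, 9.92 and 9.99 at 24 h, 9.66 and 9.76 at 48 h, against 9.85 and 9.82 in untreated A2780. For both genes the A2780CP20 arrays were the lowest of the 8. RRAGB fell by 0.74 ± 0.09 log2 (1.68-fold lower, adjusted p = 0.00259) and RRAGC by 0.60 ± 0.09 (1.52-fold lower, adjusted p = 0.00451), and these calls held in all 18 alternatives run. FNIP1 measured 8.17 and 8.63 in A2780CP20, 8.57 and 8.67 at 24 h, 8.76 and 8.88 at 48 h, against 9.05 and 9.0 in untreated A2780. Its fall of 0.62 ± 0.14 log2 in A2780CP20 (adjusted p = 0.0204) ended without A2780 untreated replicate 1 (0.104) or 2 (0.095). At 24 h it was at -0.41 ± 0.14 and was not called (0.067), but passed with the replicate block (0.0466), only the 2 groups (0.0134), an intensity trend in the prior (0.045) and without either A2780CP20 array (0.00739).

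On the arrays labelled 24 h, 2 of these 7 genes rose and none fell, where 14.9% of all genes rose. RRAGD measured 5.97 and 6.24 in A2780CP20, 6.80 and 7.03 at 24 h, 6.12 and 6.26 at 48 h, against 6.18 and 6.02 in untreated A2780. Only the 24 h pair lay above the rest, with a rise of 0.81 ± 0.13 log2 (1.76-fold, adjusted p = 0.00165). RRAGA rose by 0.29 ± 0.09 (adjusted p = 0.0451), close to the threshold, and this call ended with the replicate block (0.051) and without any 1 of the 6 arrays of A2780 untreated, 24 h and 48 h (0.0719 to 0.225). RRAGA and RRAGB are close relatives, so their separate signals are uncertain. FLCN and FNIP2 were not called in any comparison.

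Start-site windows are shown for the 3 RAG and folliculin genes that fell in A2780CP20. They were chosen because each holds CACGTG, the E-box bound by MYC, TFEB and TFE3 proteins. Windows run from 250 bases before to 50 bases after a RefSeq transcript start (GRCh38.p14), read in the direction of the gene, with the E-box in capitals. The window of PDCD4, which fell most among the 39 in A2780CP20, holds no CACGTG.
RRAGB, chrX:55717499-55717798, plus strand: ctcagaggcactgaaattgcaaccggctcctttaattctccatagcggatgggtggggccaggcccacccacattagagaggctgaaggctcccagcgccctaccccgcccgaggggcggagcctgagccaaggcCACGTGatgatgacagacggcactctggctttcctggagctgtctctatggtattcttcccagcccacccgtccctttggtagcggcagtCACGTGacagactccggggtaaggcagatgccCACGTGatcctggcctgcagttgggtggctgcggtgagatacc
RRAGC, chr1:38859723-38860022, minus strand: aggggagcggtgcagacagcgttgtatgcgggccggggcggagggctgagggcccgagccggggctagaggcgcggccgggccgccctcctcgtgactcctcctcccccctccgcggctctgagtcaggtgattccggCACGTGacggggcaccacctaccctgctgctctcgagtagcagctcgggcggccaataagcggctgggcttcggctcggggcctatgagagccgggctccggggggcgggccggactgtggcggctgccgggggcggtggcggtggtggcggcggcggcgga
FNIP1, chr5:131796968-131797267, minus strand: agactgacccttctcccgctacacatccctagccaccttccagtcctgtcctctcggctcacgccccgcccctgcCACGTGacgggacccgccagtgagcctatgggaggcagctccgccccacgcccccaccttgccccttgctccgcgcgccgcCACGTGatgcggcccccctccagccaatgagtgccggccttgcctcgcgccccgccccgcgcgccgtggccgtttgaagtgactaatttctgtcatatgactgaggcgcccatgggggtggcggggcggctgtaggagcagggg
PDCD4, chr10:110871678-110871977, plus strand: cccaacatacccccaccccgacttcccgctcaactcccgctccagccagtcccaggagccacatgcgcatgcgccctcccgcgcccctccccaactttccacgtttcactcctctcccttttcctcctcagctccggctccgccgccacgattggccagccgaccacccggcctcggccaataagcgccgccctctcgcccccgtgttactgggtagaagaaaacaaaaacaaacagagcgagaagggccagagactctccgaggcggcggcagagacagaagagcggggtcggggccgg

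RRAGB holds the letters 3 times, FNIP1 2 times and RRAGC once. Windows were at hand for 33 of the 39 genes, and MLST8, AKT1S1, DEPTOR, RRAGA, RRAGD and EIF4EBP1 had none. CACGTG, which reads the same on both strands, was in at least 1 window of 7 of the 33 genes. It was in 11.1% of their 63 windows and in 7.26% of all 35116 windows. Only these 2 shares of windows are comparable, since the share of all genes with at least 1 such window was not computed. Of the 7 genes with CACGTG, RRAGB, RRAGC, FNIP1 and INPP4B fell in A2780CP20, NPRL3 rose, and EIF4E and TSC2 were not called. Of all genes 12.0% fell there and 6.37% rose, and the shares among all genes with CACGTG were not computed. Whether the motif has a part in the falls was not tested. All 7 genes of the 39 that fell in A2780CP20 had a window, and RICTOR, PIK3R1 and PDCD4 held no CACGTG. Of 4 other motifs searched on both strands, the FOXO element GTAAACA was in a window of STK11 (1.59% of the 63 windows, 3.42% of all). The AP-1 element TGANTCA was in windows of FNIP2 and RRAGC (3.17% of the 63, 7.71% of all). The ATF4 element TGATGNAA was in windows of PIK3R1, PRR5L and TSC2 (4.76% of the 63, 3.62% of all). The CRE TGACGTCA was in none of the 63 windows, against 1.85% of all. A match describes the letters and does not show that a factor binds.

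GATOR1, made of the products of DEPDC5, NPRL2 and NPRL3, switches RRAGA and RRAGB off when amino acids are scarce. NPRL2 measured 7.73 and 7.71 in A2780CP20, 8.30 and 8.37 at 24 h, 7.62 and 7.65 at 48 h, against 7.85 and 7.73 in untreated A2780. The 24 h pair was clearly the highest, with a rise of 0.54 ± 0.09 log2 (adjusted p = 0.00195). NPRL3 instead rose in A2780CP20, by 0.45 ± 0.10 (adjusted p = 0.02), a call lost without A2780 untreated replicate 1 (0.11) or 2 (0.081). DEPDC5 was not called, and its A2780CP20 arrays read 7.68 and 8.12, on either side of the untreated 7.88 and 7.86.

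Among PI3K genes, PIK3R3, a regulatory subunit gene, measured 9.89 and 9.93 in A2780CP20, 9.0 and 8.82 at 24 h, 10.35 and 10.33 at 48 h, against 10.09 and 9.94 in untreated A2780. The 24 h arrays lay well below all others, a fall of 1.10 ± 0.10 (2.15-fold lower, adjusted p = 6.68e-05). PIK3R1, which encodes the regulatory subunit p85 alpha, measured 8.80 and 8.97 in A2780CP20, 8.70 and 8.67 at 24 h, 9.12 and 9.20 at 48 h, against 9.42 and 9.65 in untreated A2780. All 6 other arrays lay below the untreated pair. It fell by 0.65 ± 0.11 log2 in A2780CP20 (adjusted p = 0.00646, but 0.0552 without A2780 untreated replicate 2) and by 0.85 ± 0.11 at 24 h (adjusted p = 0.000508). The 48 h value was -0.38 ± 0.11 and was not called (adjusted p = 0.284). PIK3CB, the catalytic subunit p110 beta, measured 8.71 and 9.10 in A2780CP20, 10.08 and 9.96 at 24 h, 9.09 and 9.11 at 48 h, against 9.06 and 9.16 in untreated A2780. The 24 h pair stood above all others, with a rise of 0.91 ± 0.13 log2 (1.88-fold, adjusted p = 0.000951).

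INPP4B, a phosphatase that removes a PI3K-derived lipid, measured 9.30 and 9.79 in A2780CP20, 9.72 and 9.78 at 24 h, 9.64 and 9.79 at 48 h, against 10.12 and 10.28 in untreated A2780. Every other array lay below the untreated pair. The fall of 0.66 ± 0.16 log2 in A2780CP20 was called (adjusted p = 0.0221), while -0.45 ± 0.16 at 24 h (0.059) and -0.48 ± 0.16 at 48 h (0.315) were not. The 24 h value passed with quantile normalization (0.0287), the dimmest 25% left out (0.0463), the replicate block (0.0239), only the 2 groups (0.0143), an intensity trend in the prior (0.0327) and without either A2780CP20 array (0.00806). The A2780CP20 call ended without A2780 untreated replicate 1 (0.071) or 2 (0.139) and without A2780CP20 replicate 1 (0.0515). PIK3CD, the catalytic subunit best known from leukocytes, was not called in any comparison.

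AKT1 measured 11.10 and 11 in A2780CP20, 10.64 and 10.63 at 24 h, 10.55 and 10.51 at 48 h, against 10.55 and 10.68 in untreated A2780. The A2780CP20 pair was the highest, with a rise of 0.44 ± 0.09 log2 (1.35-fold, adjusted p = 0.015) that ended without A2780 untreated replicate 1 (0.0974) or 2 (0.0526). AKT2 measured 9.76 and 10.12 in A2780CP20, 9.31 and 9.36 at 24 h, 9.60 and 9.60 at 48 h, against 9.54 and 9.59 in untreated A2780. Its A2780CP20 arrays were also above the untreated pair, but 0.38 ± 0.12 log2 did not pass (adjusted p = 0.0659). It passed with quantile normalization (0.0183), the dimmest 25% left out (0.0465), an intensity trend in the prior (0.0356) or without A2780CP20 replicate 1 (0.00972). At 24 h AKT2 was at -0.23 ± 0.12 (adjusted p = 0.204) and passed without either A2780CP20 array (0.0388). SGK1, an AKT relative phosphorylated by mTORC2, measured 5.98 and 5.77 in A2780CP20, 5.41 and 5.65 at 24 h, 6.03 and 6.13 at 48 h, against 6.04 and 6.0 in untreated A2780. The 24 h arrays were its lowest, with a fall of 0.49 ± 0.12 log2 (adjusted p = 0.0124) that ended without A2780 untreated replicate 1 (0.0735) or 2 (0.0543) and without temsirolimus 24 h replicate 1 (0.107). PDPK1, the kinase that activates AKT, was not called through any of its 4 probe sets, 2 of which hold identical values. The sets did not share a direction in A2780CP20 (-0.33 to 0.19 log2), and near-identical copies make them uncertain. At 24 h the brightest was at -0.40 ± 0.15 (adjusted p = 0.0794) and passed with quantile normalization (0.0463), only the 2 groups (0.00964), an intensity trend in the prior (0.0474) and without either A2780CP20 array (0.0116).

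In the translation arm, PDCD4, a repressor of the helicase eIF4A and a target of S6 kinase for degradation, measured 9.79 and 9.64 in A2780CP20, 7.91 and 7.89 at 24 h, 10.83 and 10.91 at 48 h, against 10.60 and 10.73 in untreated A2780. The 24 h pair was far below the rest, the A2780CP20 pair between, and the 48 h pair slightly above the untreated one. PDCD4 fell by 2.77 ± 0.10 log2 at 24 h (6.8-fold lower, adjusted p = 1.98e-07) and by 0.95 ± 0.10 in A2780CP20 (1.93-fold lower, adjusted p = 0.00155), and was called in every alternative for both. At 48 h it was at 0.20 ± 0.10 and was not called (adjusted p = 0.49). EIF4EBP1, the translation repressor 4E-BP1, measured 9.53 and 9.64 in A2780CP20, 9.18 and 9.11 at 24 h, 9.22 and 9.06 at 48 h, against 8.83 and 9.10 in untreated A2780. It rose by 0.62 ± 0.12 log2 in A2780CP20 (1.54-fold, adjusted p = 0.00956, but 0.0661 without A2780 untreated replicate 1 and 0.0532 with only the 2 groups fitted).

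Of the S6 kinase genes, RPS6KB2, which encodes S6K2, measured 9.40 and 9.28 in A2780CP20, 9.52 and 9.47 at 24 h, 9.24 and 9.11 at 48 h, against 8.89 and 8.98 in untreated A2780. All 6 other arrays were above the untreated pair. The rises of 0.41 ± 0.10 log2 in A2780CP20 (adjusted p = 0.0227) and 0.56 ± 0.10 at 24 h (0.0025) were called, and 0.24 ± 0.10 at 48 h was not (0.423). The first ended without A2780 untreated replicate 1 (0.123) or 2 (0.0816) and without A2780CP20 replicate 1 (0.0597). RPS6KB1, which encodes S6K1, measured 10.42 and 10.64 in A2780CP20, 10.65 and 10.56 at 24 h, 10.74 and 10.88 at 48 h, against 10.84 and 10.81 in untreated A2780, and was not called. Its A2780CP20 value passed with an intensity trend in the prior (0.0408) and without A2780CP20 replicate 2 (0.0246). EIF4E, the cap-binding protein, was not called, has processed copies that make its probes uncertain, and measured 5.73 to 6.10 over the 8 arrays.

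EIF4EBP2 had the widest spread of the 39. Its A2780CP20 arrays read 10.71 and 11.60, one below and one above the untreated 11.04 and 11.02, while 24 h gave 10.49 and 10.50 and 48 h 11.17 and 11.09. The A2780CP20 difference of 0.12 ± 0.23 was not called and changed sign with the array left out. It was 0.57 without A2780CP20 replicate 1 (adjusted p = 0.00955) and -0.32 without A2780CP20 replicate 2 (0.033). At 24 h it was at -0.54 ± 0.23 and was not called (adjusted p = 0.125), but passed with only the 2 groups fitted (0.00379) and without either A2780CP20 array (0.0012). The median gap between the 2 arrays over the 39 genes was 0.22 log2 in A2780CP20, 0.06 at 24 h and 0.08 at 48 h, against 0.08 in untreated A2780. Over all genes it was 0.17 in A2780CP20, 0.08 at 24 h and 0.10 at 48 h, against 0.10 in untreated A2780. The plot of array 1 against array 2 shows this wider scatter.

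**Figure D3:**
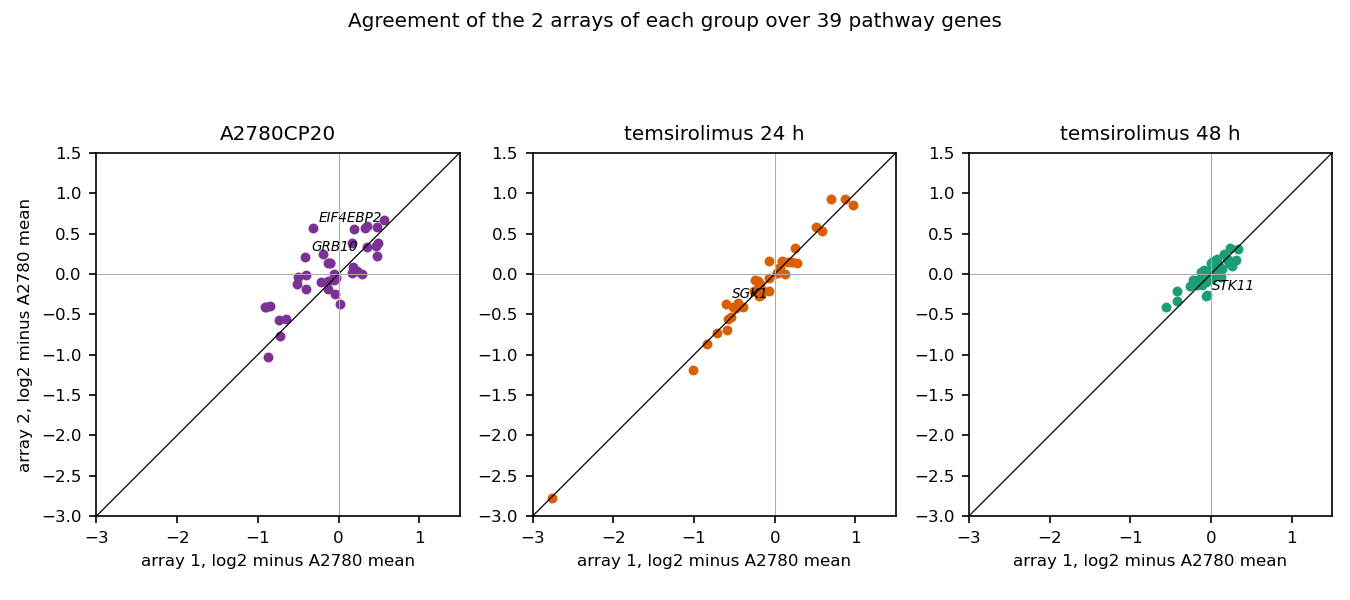
Difference of array 2 (vertical, log2) against that of array 1 (horizontal, log2) from the mean of untreated A2780, for 39 genes in A2780CP20, temsirolimus 24 h and temsirolimus 48 h; the diagonal marks equal values. Points scatter most in A2780CP20, where EIF4EBP2 (0.89 log2 apart) and GRB10 (0.62) lie farthest from the diagonal.

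FKBP1A, whose product binds temsirolimus, measured 10.74 and 10.96 in A2780CP20, 10.74 and 10.72 at 24 h, 10.79 and 10.70 at 48 h, against 10.49 and 10.65 in untreated A2780. All 6 other arrays were slightly above the untreated pair, yet 0.28 ± 0.11 log2 in A2780CP20 (adjusted p = 0.11), 0.16 ± 0.11 at 24 h (0.326) and 0.17 ± 0.11 at 48 h (0.602) did not pass. The A2780CP20 value passed with quantile normalization (0.0329) and without A2780CP20 replicate 1 (0.0467). Its second probe set gave 0.16, 0.20 and 0.20 log2, also not called, and processed copies make the gene uncertain. GRB10, an adaptor that mTORC1 phosphorylates and that dampens insulin receptor signalling, measured 6.07 and 6.69 in A2780CP20, 7.35 and 7.41 at 24 h, 6.49 and 6.62 at 48 h, against 6.39 and 6.58 in untreated A2780. The 24 h pair stood above all others, a rise of 0.90 ± 0.18 log2 (1.86-fold, adjusted p = 0.00574, and 0.0508 without A2780 untreated replicate 1). STK11, the kinase LKB1 that activates AMPK, was not called, at 0.35 ± 0.12 in A2780CP20 (adjusted p = 0.0762), but passed with the replicate block (0.0403) and without A2780CP20 replicate 2 (0.0246).

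**Figure D4:**
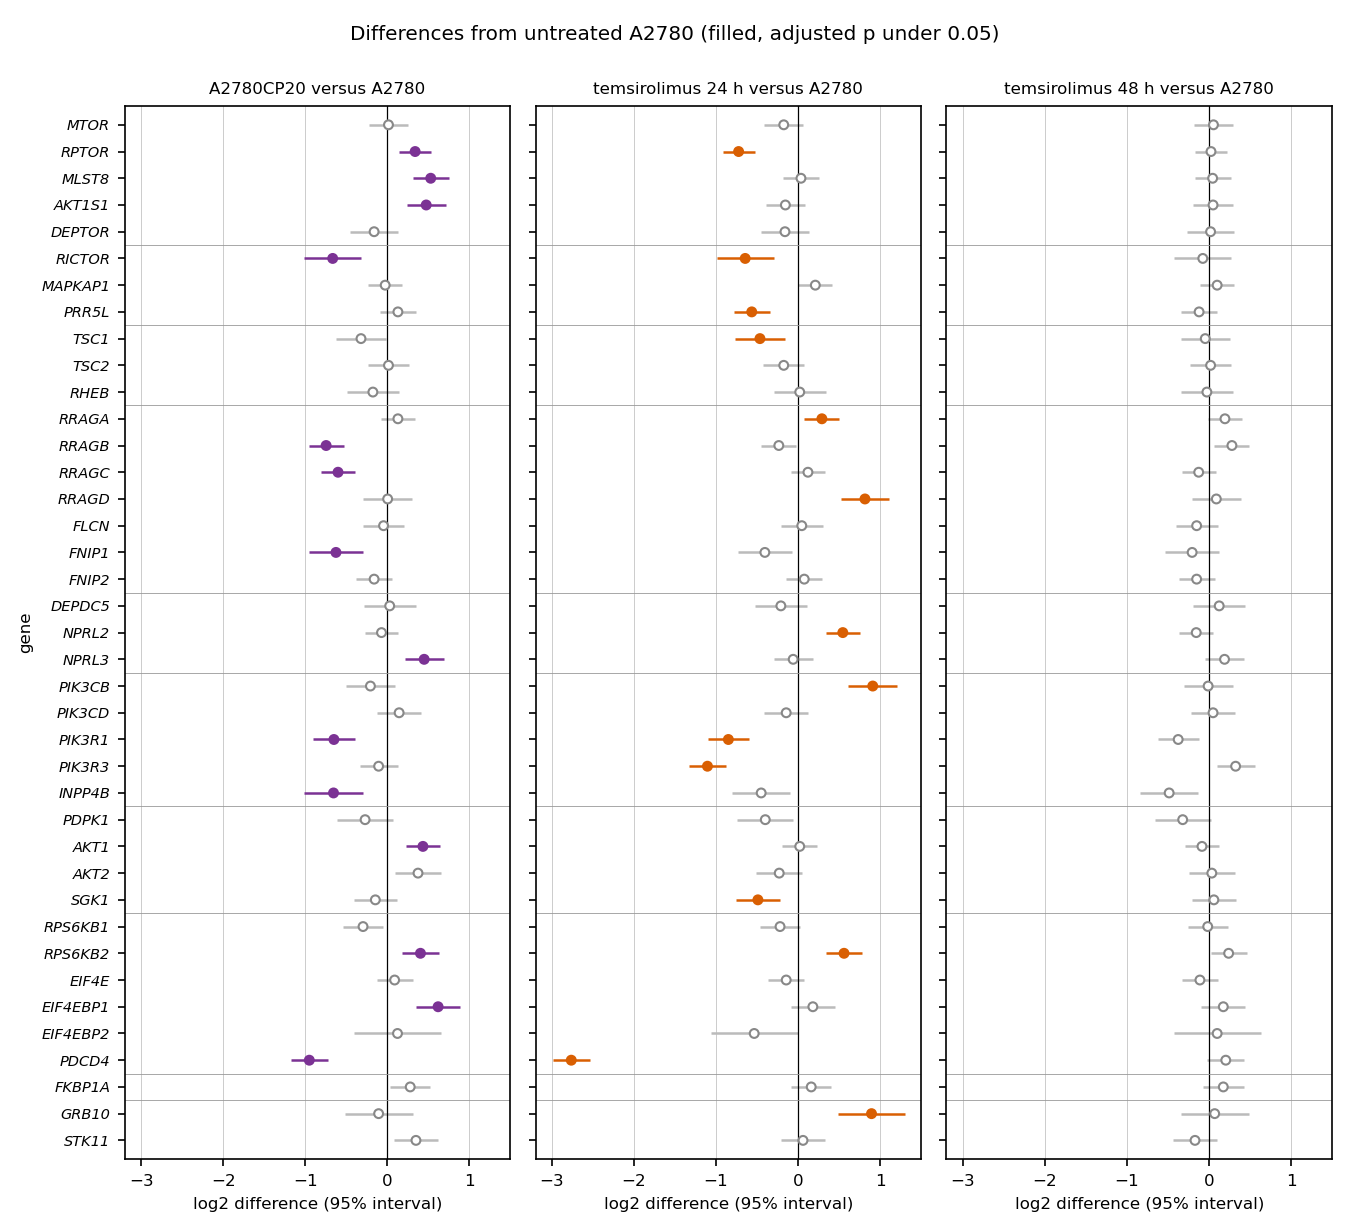
Log2 difference from untreated A2780 with its 95% interval (limma, 2 arrays a group) for 39 genes in A2780CP20, temsirolimus 24 h and temsirolimus 48 h; filled points have an adjusted p under 0.05 and lines separate the roles. There are 14 filled points in A2780CP20, 14 at 24 h and none at 48 h.

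Between the temsirolimus times, 9 of the 39 genes were higher and 5 lower at 48 h than at 24 h. The 35.9% called is close to the 31.0% of all genes called (15.2% higher, 15.7% lower), and the groups did not overlap for 31 of the 39, against 69.3% of all genes. PDCD4 was 7.84-fold higher at 48 h (2.97 ± 0.10 log2, adjusted p = 1.22e-07) and PIK3R3 2.69-fold higher (1.43 ± 0.10, adjusted p = 1.32e-05). PIK3CB (-0.92 ± 0.13), GRB10 (-0.82 ± 0.18), RRAGD (-0.72 ± 0.13) and NPRL2 (-0.70 ± 0.09) were the 4 lowest. The GRB10 call ended without temsirolimus 48 h replicate 1 (adjusted p = 0.0617). INPP4B, FKBP1A and EIF4EBP1 did not pass, at -0.04 ± 0.16, 0.01 ± 0.11 and 0.00 ± 0.12 log2. With only the 48 h and 24 h groups fitted, 19 of the 39 were called, against 38.4% of all genes. That fit gained MTOR, DEPDC5, NPRL3, AKT2 and EIF4EBP2. The comparison of 48 h with 24 h shares the 24 h arrays with the one above.

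Of 72 other pathway genes with a probe set of their own, in 10 lists that hold no gene of the 39, 7 rose and 8 fell in A2780CP20, 17 rose and 12 fell at 24 h and none was called at 48 h. The 20.8% called in A2780CP20 and 40.3% at 24 h stand against 18.4% and 30.1% of all genes, and the counts of the lists below are to be read against the same shares. Their medians were 0.05 log2 (A2780CP20), -0.02 (24 h) and 0.02 (48 h), against 0.03, 0.01 and -0.03 over all genes. Of 5 genes of Ragulator and its partner SLC38A9, 2 fell in A2780CP20, and LAMTOR2, LAMTOR4 and LAMTOR5 were not called there. SLC38A9, a lysosomal arginine sensor that works with Ragulator, measured 7.28 and 7.55 in A2780CP20 against 8.66 and 8.84 in untreated A2780 (-1.33 ± 0.14 log2, adjusted p = 0.00155), and LAMTOR3 was at -0.60 ± 0.17 (0.0447). Of 8 genes of GATOR2, which opposes GATOR1, and KICSTOR, which anchors it, 4 rose at 24 h, led by SEC13 (0.58 ± 0.11) and SEH1L (0.57 ± 0.09), and 1 rose in A2780CP20.

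Of 5 genes for assembly of mTOR and related kinases, 3 rose at 24 h, among them TTI2 (1.37 ± 0.11, adjusted p = 2.52e-05) and RUVBL2 (0.78 ± 0.10), and TELO2 rose in A2780CP20 (0.55 ± 0.13). Of 6 amino acid and stress sensors, SESN1 (-1.05 ± 0.10) and SESN2 (-0.70 ± 0.11) fell at 24 h and DDIT4, an inducible mTORC1 inhibitor, rose (0.62 ± 0.12; named after its value was seen), whereas SESN2 rose in A2780CP20 (0.48 ± 0.11). Of 9 genes of AMPK and STK11 partners, 3 rose and 2 fell at 24 h, and 1 fell in A2780CP20. PRKAA2, the AMPK alpha 2 subunit, measured 8.60 and 8.90 at 24 h against 4.75 and 4.41 in untreated A2780. Its 4.17 ± 0.15 log2 can be understated, since the untreated values lay below 5.03, the smallest of the arrays' lower quartiles. No value of the 39 genes lay below that level.

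Of 13 mTORC1 substrates and translation effectors, 3 rose and 2 fell in A2780CP20, and 2 rose and 3 fell at 24 h. EIF4B, an S6 kinase substrate that aids eIF4A, measured 12.57 and 12.58 in A2780CP20 and 12.17 and 12.21 at 24 h, against 13.03 and 13.09 in untreated A2780 (-0.48 ± 0.09 and -0.87 ± 0.09 log2, both called). LARP1, which represses mRNAs of ribosomal proteins, rose by 0.58 ± 0.15 in A2780CP20, where LPIN1 was at -0.585 ± 0.153 and was called lower. Of 9 other PI3K and lipid phosphatase genes, 1 rose and 1 fell in A2780CP20, and 2 rose and 2 fell at 24 h. Among them PIK3C3, the class III kinase, fell in A2780CP20 (-0.90 ± 0.18) and the phosphatase gene SYNJ2 rose at 24 h (1.14 ± 0.12). Of 7 AKT and SGK relatives and phosphatases, 1 fell in A2780CP20, and 1 rose and 2 fell at 24 h. Among them PPP2R5C fell in A2780CP20 (-0.58 ± 0.10) and at 24 h (-0.44 ± 0.10). Of 7 other FKBP genes none was called in A2780CP20, and at 24 h FKBP4 rose (0.62 ± 0.12) and FKBP3 fell (-0.34 ± 0.10). Of 3 FOXO factors that AKT restrains, FOXO4 fell in A2780CP20 (-0.38 ± 0.10).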

How the data were processed

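The authors hybridised total RNA to Affymetrix Gene 1.0 ST arrays, per the labels' protocols, and deposited 1 value for each of 33297 probe sets on each of 8 arrays. The deposited values are read as log2 intensities from their range of 1.8 to 14.99. The submitters' processing notes name Partek. Background correction, normalization and probe summary were not given in the sources used here. Array medians were 6.66 to 6.72.

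The platform annotation gave 19460 probe sets 1 symbol and 1754 several, and left 12083 unnamed. The brightest probe set by mean stood for each of 18417 genes. limma version 3.58.1 in R version 4.3.3 fitted 4 group means to all 8 arrays, with two-sided moderated tests (residual degrees of freedom 4, prior 4.48). The fit was tested on simulated data that gave each gene 1 spread in all groups. That test does not cover the wider gap between the A2780CP20 arrays. Precision is limited by 2 arrays a group.

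The genes, lists and tests were chosen with earlier results of these data known. Values on every array are given for genes called with at least 0.5 log2 in any comparison and for MTOR, RPTOR, RICTOR, FKBP1A, RPS6KB1, EIF4EBP1, AKT1 and AKT2. Up to 2 called genes per other list and comparison are named. Another is named for the sensors at 24 h and for the mTORC1 substrates in A2780CP20. Promoter windows are RefSeq's, matched by symbol. Alternatives were quantile normalization, median centring, a filter on dim genes, other treatment of probe sets, a replicate block, fits to fewer arrays, a trended or robust prior and leaving out each array.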

Additional observations from a re-analysis of the deposited data

Results flagged for a closer look

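For 14 genes the arrays labelled 48 h and those labelled 24 h differed, by limma's test of 48 h against 24 h. Because both groups are compared with the same untreated arrays, this also tests whether their differences from untreated A2780 are equal. Whether these are responses to the drug was not tested. The 14 genes are 35.9% of the 39, close to the 31.0% of all genes called in that comparison. In log2 units, 48 h minus 24 h, the differences were 2.97 for PDCD4, 1.43 for PIK3R3, 0.75 for RPTOR, 0.57 for RICTOR, 0.55 for SGK1, 0.52 for RRAGB, 0.48 for PIK3R1, 0.44 for PRR5L and 0.42 for TSC1. They were -0.92 for PIK3CB, -0.82 for GRB10, -0.72 for RRAGD, -0.70 for NPRL2 and -0.32 for RPS6KB2. The arrays labelled 24 h stood apart over all genes, and the part of that in these 14 differences was not tested. Leaving out 1 array ended 7 of them at least once: TSC1, RPS6KB2, RICTOR, PRR5L, PIK3R1, SGK1 and GRB10.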

How the results depend on the processing

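The 14 calls in A2780CP20 became 4 in a fit of only the 2 groups compared, all of them among the 14 and all lower (0 higher and 4 lower, against 7 and 7), and 4 to 21 with 1 array left out. The 14 calls of 48 h against 24 h became 8 to 20 with 1 array left out. The 14 at 24 h stayed between 10 and 19, and the count at 48 h was 0 in every alternative. EIF4EBP2 in A2780CP20 was -0.32 without A2780CP20 replicate 2 and 0.57 without replicate 1. Counts over all genes moved too: from 3388 to 1022 with only the 2 groups and 974 to 5543 with 1 array left out in A2780CP20, from 5551 to between 3621 and 6895 at 24 h, from 33 to between 4 and 57 at 48 h (68 with an intensity trend in the prior), and from 5702 to between 3715 and 7154 for 48 h against 24 h. The causes were not tested. Without both arrays labelled 24 h, 13 calls held in A2780CP20 and RPTOR ended. With a replicate block, members called numbered 15, 15, 0 and 14 in the order of the comparisons, with RRAGA at 24 h lost and STK11 in A2780CP20 (0.0403) and FNIP1 (0.0466) and INPP4B (0.0239) at 24 h gained. The labels do not say what equal replicate numbers share, and the arrays were not treated as paired: same-numbered deviations correlated at 0.117 to 0.181 among A2780CP20, 48 h and untreated A2780, but at 0.002 to 0.039 between 24 h and these 3.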
